A study of Mus musculus with 6 samples.

Results

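Open chromatin was compared between the WT and the CBE_2 pro-B cell lines, which account for 4 of the 6 libraries of the series (2 per line). All of the data are ATAC-seq peak lists, in which the transposase Tn5 marks DNA that is not wrapped in closed chromatin. Pro-B cells are bone marrow precursors of B lymphocytes at the stage where the IgH (immunoglobulin heavy chain) gene is assembled. Both lines are of strain 129SV, derive from bone marrow, lack RAG2, and were untreated in 1640 RPMI medium with fetal bovine serum and 2-mercaptoethanol. WT carries wild-type IgH alleles, and CBE_2 carries IgH alleles with a mutated IGCR1 (genotype IGCR1-/-). Each library was made from 200000 cells with 11 cycles of PCR. Whether a line is 1 clone, and whether its duplicates came from separate cultures, is not stated, so spread between duplicates may be technical. Each genotype is represented by 1 line here, so genotype and line cannot be told apart in any comparison.

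RAG1 and RAG2 form the recombinase that joins V, D and J gene segments, so in cells without RAG2 the antigen receptor loci are not joined by it. IGCR1 lies between the D and the VH segments of IgH and is known for sites bound by CTCF, a protein that anchors chromatin loops and insulates neighbouring domains. Accessible chromatin at promoters and enhancers is bound by transcription factors, and which of these are open distinguishes cell types and cell lines.

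The WT lists held 112241 and 106056 peaks, and the CBE_2 lists 94665 and 97522. The length under peaks was 80.1 and 75.4 Mb for WT, and 69.0 and 70.1 Mb for CBE_2. The number of reads behind each list is unknown. Merging peaks that overlapped by at least 1 bp gave 142928 regions. Of these, 62705 (43.9%) had a peak in all 4 libraries and are called shared. WT-only regions, with a peak in both WT libraries and in neither CBE_2 library, numbered 16012 (11.2% of all regions). CBE_2-only regions, defined the other way round, numbered 8548 (5.98%). A further 39223 regions had a peak in 1 library alone and 4777 in 1 library of each line. Strength is given as the deposited fold over background, or as the percentile of that fold among the shared regions of the same library, where 100 is the strongest. A shared region is said to have risen or fallen in CBE_2 when limma, on normal scores of these ranks, gave a Benjamini-Hochberg adjusted p below 0.05. By this rule 9765 shared regions (15.6%) rose and 10318 (16.5%) fell. With 2 libraries against 2, an exact permutation test of any 1 count cannot go below a two-sided p of 0.33, so counts and shares are given as descriptions beside these percentages.

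The mutated element was examined first, in windows set around loci from general knowledge of build mm9. The window borders are rough, since an mm9 annotation was not used here. The D-to-VH interval, the part of IgH where IGCR1 lies, held 7 regions. A pair on its D side was found in both WT libraries and in neither CBE_2 library. The first, at chr12:114723239-114724090, had folds of 7.14 and 6.48 in WT. The second, at chr12:114725829-114726376, had folds of 8.01 and 8.13. Their summits lay 2.453 kb apart in WT replicate 1 and 2.445 kb apart in WT replicate 2, and both remained WT-only in lists of equal length and without any 1 library. Both CBE_2 libraries thus lacked a pair of peaks that both WT libraries had in the interval named by their genotype.

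On both sides of the pair shared regions moved, and in opposite directions. Next to it on the D side, the region at chr12:114719252-114721083 had folds of 7.47 and 6.92 in WT and 2.82 and 2.79 in CBE_2. It fell from percentiles 55.4 and 52.3 to 4.07 and 4.18, a difference of -1.83 ± 0.237 normal scores (SE, n = 2 per line; limma adjusted p = 2.28e-05). On the VH side, the region at chr12:114762682-114763355 had folds of 3.14 and 3.52 in WT and 8.71 and 8.70 in CBE_2. It rose from percentiles 6.74 and 13.2 to 64.7 and 65.7 (1.70 ± 0.18 normal scores; limma adjusted p = 3.33e-06). A weak CBE_2-only region, at chr12:114761830-114762129, lay beside it with folds of 2.82 and 3.01, and 3 more in the interval were found in CBE_2 replicate 2 alone.

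Over the J segments and the intronic enhancer Eμ, which drives transcription of the unjoined locus, both regions were shared and both were called higher in CBE_2, by calls that did not hold under several alternatives. The widest region there, at chr12:114665433-114670222, had folds of 17.1 and 17.8 in WT and 21.9 and 17.5 in CBE_2, so CBE_2 replicate 2 lay between the WT libraries in fold. Its percentiles were 87.1 and 88.3 in WT and 95.9 and 90.9 in CBE_2 (limma adjusted p = 0.00793), and without CBE_2 replicate 1 the adjusted p was 0.102. The other, at chr12:114664639-114665362, had percentiles of 63.9 and 66.2 in WT and 71.3 and 72.6 in CBE_2 (limma adjusted p = 0.0461, and 0.0585 to 0.196 without any 1 library). Among the D segments, the region at chr12:114684987-114686143 had percentiles of 75.6 and 74.1 in WT and 71.3 and 70.9 in CBE_2 (limma adjusted p = 0.212). On log2 folds it was called lower in CBE_2 (limma adjusted p = 0.00898). Its neighbour at chr12:114684250-114684749 leaned the other way, with percentiles of 66.5 and 63.2 in WT and 70.2 and 71.9 in CBE_2 (limma adjusted p = 0.0806). In the window of the constant genes, the region at chr12:114654073-114656527 fell from percentiles 51.9 and 49.1 to 17.5 and 15.8 (limma adjusted p = 0.000361). Of the 5 shared regions of that window 2 fell (40.0%, against 16.5% of all shared regions). None passed the test in the other direction.

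**Figure D1:**
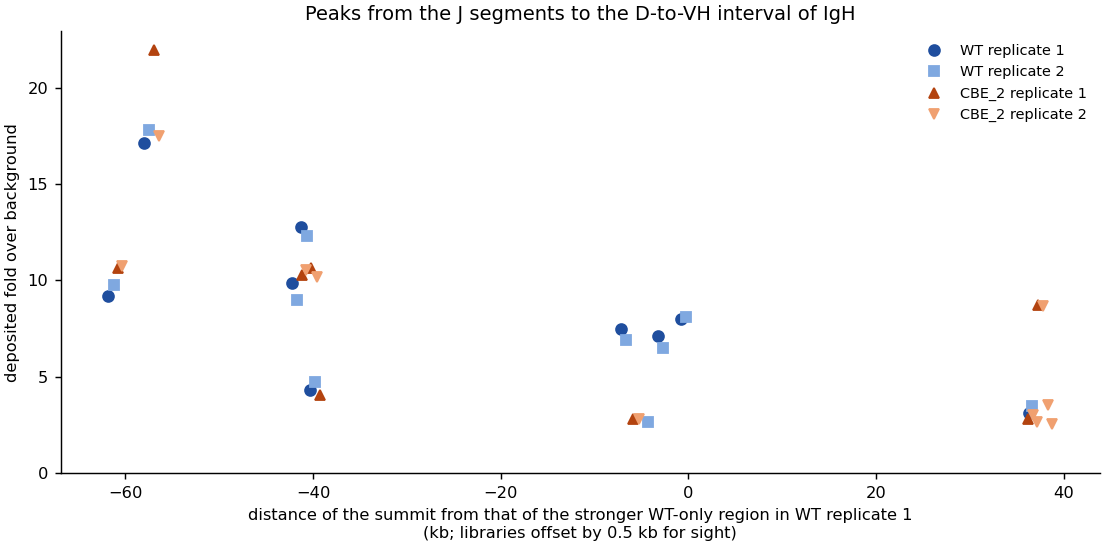
Deposited fold (vertical axis) of each peak from the J segments to the D-to-VH interval of IgH, by distance in kb from the summit of the stronger WT-only region (horizontal axis); each marker is the strongest peak of a region in 1 library, and libraries are offset by 0.5 kb. The WT-only pair stands at 0 and about -2.45 kb with no CBE_2 marker, and at about 37 kb both CBE_2 libraries (8.71 and 8.70) lie above both WT libraries (3.14 and 3.52).

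Along the VH segments, the units from which the variable part of the heavy chain is chosen, the shared regions leaned towards CBE_2. The window held 264 regions, of which 155 were shared. CBE_2-only regions numbered 19 (7.2%, near the 5.98% of all regions) and WT-only regions 6 (2.27%, against 11.2%). Of the shared regions 26 rose (16.8%), close to the 15.6% of all shared regions, while 3 fell (1.94%), against 16.5%. The rise was small and broad: in 85 of the 155 (54.8%, against 33.6% of all shared regions) both CBE_2 libraries lay above both WT libraries, and in 12 (7.74%, against 31.8%) below. The median percentile difference was 5.14 points, with a range from -29.8 to 35.8. The 19 CBE_2-only regions were weak, with folds of 2.25 to 4.41. Their number was 20 with lists of equal length and between 24 and 41 when 1 library was left out, while WT-only regions then numbered 9 to 14.

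The Igk and Igl light chain loci, which carry no engineered change per the labels, leaned the same way in the windows of the Igk V segments and of the whole Igl locus. In the Igk V window 131 of 207 regions were shared. CBE_2-only regions numbered 28 (13.5%, against 5.98% of all regions) and WT-only regions 6 (2.90%, against 11.2%). Without 1 library these counts were 35 to 37 and 7 to 11. Of the shared regions 30 rose (22.9%) and 6 fell (4.58%), with a median difference of 4.77 points. The Igl window gave 13 peaks in each of the 4 libraries and 12 shared regions. Of these 4 rose (33.3%) and none fell, against 15.6% and 16.5% of all shared regions. Around the Igk J and C segments and the kappa enhancers the balance differed. Of 22 regions 5 were WT-only (22.7%, against 11.2%) and 1 CBE_2-only (4.55%, against 5.98%). The strongest of the WT-only regions, at chr6:70670300-70670929, had folds of 7.14 and 6.15. A shared region at chr6:70699608-70700268 rose there from percentiles 45.1 and 53.7 to 75.4 and 71.6 (limma adjusted p = 4.57e-05). Another, at chr6:70664099-70664661, fell from 73.7 and 71.9 to 65.7 and 66.1 (limma adjusted p = 0.0388, and 0.0591 to 0.185 without any 1 library). Differences between these loci were not tested.

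The T cell receptor windows did not share a direction. T cell receptor gamma had 20 WT-only regions among 52 (38.5%) and 2 CBE_2-only regions, with 49 and 48 peaks in WT and 26 and 27 in CBE_2. Of its 22 shared regions 13 fell (59.1%, against 16.5% of all shared regions) and none rose. In 20 of the 22 (90.9%, against 31.8%) both CBE_2 libraries lay below both WT libraries. The strongest of them, at chr13:19447190-19451240, fell from percentiles 93.5 and 96.2 to 84.1 and 85.4 (limma adjusted p = 2.78e-05). The 10 Mb of chromosome 13 around it, from 10 to 20 Mb, also held many WT-only regions (27.3% of 411) and a median difference of -9.24 points, close to the -12.2 points of the window. The part this surrounding shift plays in the window was not tested. T cell receptor beta leaned to CBE_2. Of its 32 shared regions 11 were higher (34.4%, against 15.6% of all shared regions) and 3 lower (9.38%, against 16.5%). The falls included the region at chr6:40840401-40842365, from percentiles 93.3 and 91.0 to 77.0 and 81.3 (limma adjusted p = 1.05e-05). The last region of the window, at chr6:41507219-41509887, fell from percentiles 89.2 and 89.1 to 81.0 and 81.6 (limma adjusted p = 0.000408, and 0.0569 without the mean-variance trend). T cell receptor alpha and delta had 11 WT-only (10.9%) and 4 CBE_2-only regions (3.96%), and 11 of 57 shared regions fell (19.3%) while 2 rose (3.51%). The WT-only share and the share that fell were near the backgrounds of 11.2% and 16.5%. The CBE_2-only share and the share that rose were below the backgrounds of 5.98% and 15.6%. The median difference was 0.429 points, with 20 regions above WT in both CBE_2 libraries and 24 below. Its WT-only regions numbered 12 to 19 and its CBE_2-only regions 5 to 8 without 1 library.

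Loci that mark the pro-B stage were open in both lines. Windows around Pax5, Ebf1 and Ikzf1 (transcription factors of B lineage commitment), Vpreb1 with Igll1 (the surrogate light chain) and Rag1 with Rag2 held between 7 and 50 peaks in every library. Of their 170 regions 80 were shared, 11 WT-only (6.47%, against 11.2% of all regions) and 8 CBE_2-only (4.71%, against 5.98%). Without 1 library 16 to 24 were WT-only and 13 to 23 CBE_2-only. Among markers of other lineages, the Mpo window, for a myeloid enzyme, held 1 peak per library, and the Gata1 window, for an erythroid factor, between 1 and 3. The Cd3d, Cd3e and Cd3g window, for the T cell receptor's signalling chains, held 8 to 11 peaks, so some T lineage loci were open in these lines too. The Kit window, for the stem cell factor receptor, held no peak in any of the 4 libraries.

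Within the pro-B group the Rag1 and Rag2 window stood out by direction. It held 15 and 14 peaks in WT and 21 and 19 in CBE_2. Of its 11 shared regions 9 rose (81.8%, against 15.6% of all shared regions) and none fell. The region at chr2:101463205-101465841 had folds of 4.98 and 5.05 in WT and 17.2 and 14.8 in CBE_2. It rose from percentiles 33.7 and 35.3 to 87.7 and 84.3 (1.48 ± 0.0812 normal scores, SE; limma adjusted p = 3.07e-09). Another, at chr2:101488180-101490127, had folds of 8.01 and 8.13 in WT and 20.6 and 17.1 in CBE_2, and rose from percentiles 58.5 and 59.2 to 94.2 and 89.9 (limma adjusted p = 3.01e-08). All 4 line-only regions of the window were CBE_2-only. The Vpreb1 and Igll1 window went the other way: in its 7 shared regions both CBE_2 libraries lay below both WT libraries. Of these 2 fell by the test (28.6%, against 16.5% of all shared regions). The region at chr16:16857915-16859609 had folds of 8.01 and 8.46 in WT and 3.31 and 3.33 in CBE_2, a fall from percentiles 58.5 and 60.8 to 12.8 and 13.7 (limma adjusted p = 1.13e-05). Beside it, the region at chr16:16859698-16861445 was WT-only, with folds of 4.00 and 4.28.

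Irf4, a factor of the later pre-B stage, lay lower in CBE_2. Its window held 11 and 10 peaks in WT and 7 and 6 in CBE_2. Of its 5 shared regions 3 fell (60.0%, against 16.5% of all shared regions). The strongest, at chr13:30839013-30843900, had folds of 18.5 and 18 in WT and 12.8 and 11.7 in CBE_2, and fell from percentiles 90.4 and 88.9 to 77.0 and 75.5 (limma adjusted p = 7.54e-06). The surrounding 10 Mb, from 30 to 40 Mb of chromosome 13, gave 22.7% WT-only regions and a median difference of -7.12 points against -9.49 in the window, and its part in the result was not tested. In the window of Myc, a growth regulator, and its downstream domain, 10 of 95 regions were WT-only (10.5%, near the background of 11.2%). CBE_2-only regions numbered 2 (2.11%, against 5.98%). Of the 50 shared regions 12 fell (24.0%, against 16.5% of all shared regions) and 5 rose (10.0%, against 15.6%). With lists of equal length the window held 6 WT-only and 4 CBE_2-only regions. Without 1 library it held 10 to 19 WT-only and 4 to 8 CBE_2-only regions.

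The Hox clusters, arrays of genes for transcription factors that give cells their position along the body axis and that are held silent by Polycomb proteins in many cell types, carried far more peaks in CBE_2. Together the 4 windows held 37 and 31 peaks in WT and 90 and 81 in CBE_2. Of their 98 regions 33 were CBE_2-only (33.7%, against 5.98% of all regions) and 3 WT-only (3.06%, against 11.2%). With lists of equal length these counts were 36 and 3. HoxA showed this most, with 6 and 4 peaks in WT and 24 and 23 in CBE_2, and with 14 CBE_2-only regions, no WT-only region and 3 shared regions among 23. Its strongest CBE_2-only regions lay at chr6:52108058-52109063, with folds of 10.2 and 9.77, and at chr6:52194810-52197277, with folds of 8.46 and 9.45. The shared region at chr6:52161080-52164000 rose from percentiles 51.1 and 42.4 to 69.4 and 69.5 (limma adjusted p = 0.000148). HoxB held 14 and 12 peaks in WT and 22 and 23 in CBE_2, HoxC 12 and 10 against 27 and 21, and HoxD 5 and 5 against 17 and 14. CBE_2-only regions numbered 7, 6 and 6 there, and when 1 library was left out they numbered 7 to 11 in HoxB, 7 to 18 in HoxC and 6 to 12 in HoxD. Of the 23 shared regions of the 4 windows 4 rose and 2 fell. The rises were 2 of 3 in HoxA (66.7%) and 2 of 6 in HoxC (33.3%), against 15.6% of all shared regions. The falls were 1 of 10 in HoxB (10.0%) and 1 of 4 in HoxD (25.0%), against 16.5%. Median percentile differences were 18.1 points in HoxA, -0.19 in HoxB, 15.9 in HoxC and 0.762 in HoxD.

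More peaks in CBE_2 were also found at Gata3 and Irs1. The Gata3 window, for a transcription factor of T and innate lymphoid cells, held 3 and 4 peaks in WT. It held 12 in each CBE_2 library. Of its 12 regions 7 were CBE_2-only (58.3%, against 5.98% of all regions). Of its 3 shared regions 2 rose (66.7%, against 15.6% of all shared regions) and none fell. Its strongest shared region, at chr2:9799650-9801826, rose from percentiles 78.5 and 84.3 to 94.2 and 93.8 (limma adjusted p = 5.79e-06). In the Irs1 window, for an adaptor of insulin and cytokine receptor signalling, 2 of 3 shared regions rose (66.7%, against 15.6%) and none fell. Of its 11 regions 6 were CBE_2-only (54.5%, against 5.98%). They included chr1:82278857-82280908, with folds of 25.6 and 23.3, and chr1:82285820-82290060, with folds of 24.0 and 22.4, both among the 10 strongest CBE_2-only regions of the genome. At Cdkn2a and Cdkn2b, a tumour suppressor locus that restrains growth of cultured B cell precursors, both lines had many peaks, 16 and 16 in WT and 19 and 18 in CBE_2. A single region differed there by a large margin: chr4:88938814-88942183 had folds of 2.81 and 4.06 in WT and 22.8 and 19.9 in CBE_2. It rose from percentiles 2.63 and 22.0 to 96.9 and 95.2 (3.12 ± 0.23 normal scores, SE; limma adjusted p = 7.62e-08). Without CBE_2 replicate 1 the peaks merged there into separate regions, and the shared one differed by 1.37 normal scores (limma adjusted p = 5.12e-05). Another region of the window, chr4:88955893-88958037, fell from percentiles 90.8 and 93.6 to 86.3 and 86.3 (limma adjusted p = 0.00215, and 0.108 without the mean-variance trend), and the median difference over its 10 shared regions was -0.154 points.

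**Figure D2:**
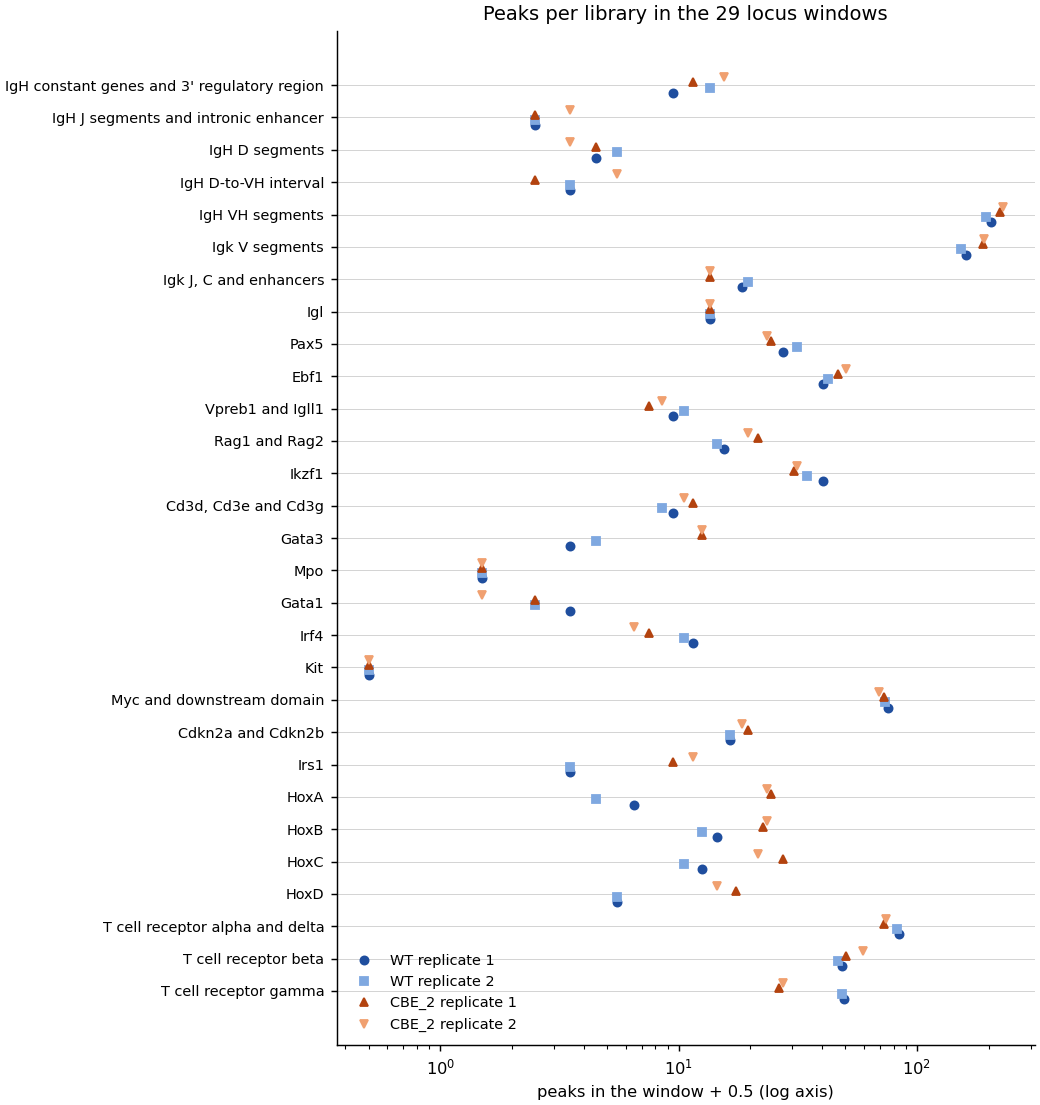
Peaks per library (horizontal axis, log scale, 0.5 added) in the 29 locus windows (vertical axis); each marker is 1 library. Among other windows, both CBE_2 libraries lie to the right of both WT libraries for HoxA, HoxB, HoxC, HoxD, Gata3, Irs1 and Rag1 with Rag2, and to the left for T cell receptor gamma, Irf4 and the Igk J, C and enhancer window.

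Places dense in line-only regions, taken in 100 kb bins over the whole genome, differed between the classes. The 3 bins with most WT-only regions all lay on chromosome 18: 25 WT-only regions at chr18:88204136-88299127, where WT had 39 and 40 peaks and CBE_2 had 3 and 4, then 23 at chr18:78004314-78097693 and 22 at chr18:80399612-80499542. None of these bins held a CBE_2-only region. Among CBE_2-only regions the densest bins lay at chr14:122805881-122890710 (14 regions, 6 and 4 peaks in WT and 21 and 19 in CBE_2), at chr11:112905620-112999515 (13 regions, 1 and 0 peaks against 16 and 16) and at chr9:98318358-98398058 (12 regions, 1 and 1 peaks against 13 and 15). The last of these was tied at 12 with a bin that is not described here and that also held 1 WT-only region. The HoxA bin was the sixth in this order with 10. General knowledge of mm9 places Zic2 and Zic5 in the first of these, and Pax6 in another dense bin, at chr2:105507734-105528177. These genes encode developmental transcription factors of other tissues, were looked up after the values had been seen, and were not checked against an annotation of this build. CBE_2-only regions were not more clustered than WT-only regions as a class: 31.2% lay within 10 kb of another of their class, against 40.0% of WT-only regions, which are more numerous.

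The strongest line-only regions reached the top of their lists. At the head of the WT-only class, chr9:29423644-29425317 had folds of 22.4 and 22.7, and the third, at chr11:35691291-35692953, had 22.7 and 22.2. The 10 strongest lay on 8 chromosomes, with list percentiles (the rank of the deposited −log10 p-value among all peaks of a list, 100 being the best) of 94.3 or more in both libraries. At the head of the CBE_2-only class, chr14:84842096-84846534 had folds of 26.1 and 23.6. The third, at chr15:25609498-25611222, had 24.4 and 22.3, and the 10 strongest had list percentiles of 95.9 or more. Such regions were rare in both classes. In the best 10% of both lists of their line stood 21 WT-only regions (0.131% of the class) and 61 CBE_2-only regions (0.714%). In the better 50% of both lists stood 2546 WT-only (15.9%) and 1981 CBE_2-only regions (23.2%). WT-only regions were thus more numerous there, while the share of the class was again higher for CBE_2-only regions.

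Most line-only regions were weak, and their merged widths were smaller than the median of shared regions. Their median list percentile was 33.7 and 28.8 in the WT libraries and 33.6 and 33.7 in the CBE_2 libraries, against 64.4 to 70.9 for shared regions. Median widths were 408 bp for WT-only regions (quartiles 331 and 541) and 436 bp for CBE_2-only regions (340 and 649). Shared regions had a median width of 832 bp (535 and 1509). A shared region joins peaks from more libraries than a line-only region does, which by itself tends to widen it. Widths of shared and line-only regions are therefore not measured alike, and this effect was not removed. CBE_2-only regions had the longer tail, with 11.3% at 1 kb or wider against 3.89% of WT-only regions, and 11.0% against 5.32% in lists of equal length. Peaks themselves were of similar width in all lists, with medians of 445 and 446 bp in WT and 464 and 459 bp in CBE_2.

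The excess of WT-only over CBE_2-only regions depended on the length of the lists. It was a ratio of 1.87 with uncut lists. Cut to 94665 peaks each, the length of the shortest list, the lists gave 11613 WT-only (9.07%) and 9895 CBE_2-only regions (7.73%), a ratio of 1.17. With the best 75000, 50000, 25000 and 10000 peaks the ratio was 1.11, 1.08, 1.05 and 1.07. Chromosomes 18 and 19 supplied 2813 of the WT-only and 301 of the CBE_2-only regions. Without them the ratio was 1.6 uncut and 1.03 at equal length, and 0.885 for the best 10000 peaks. Leaving out a library relaxes the rule for its line, and WT-only regions numbered 27211 without WT replicate 1 and 32186 without WT replicate 2, while CBE_2-only regions numbered 16853 without CBE_2 replicate 1 and 15860 without CBE_2 replicate 2.

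**Figure D3:**
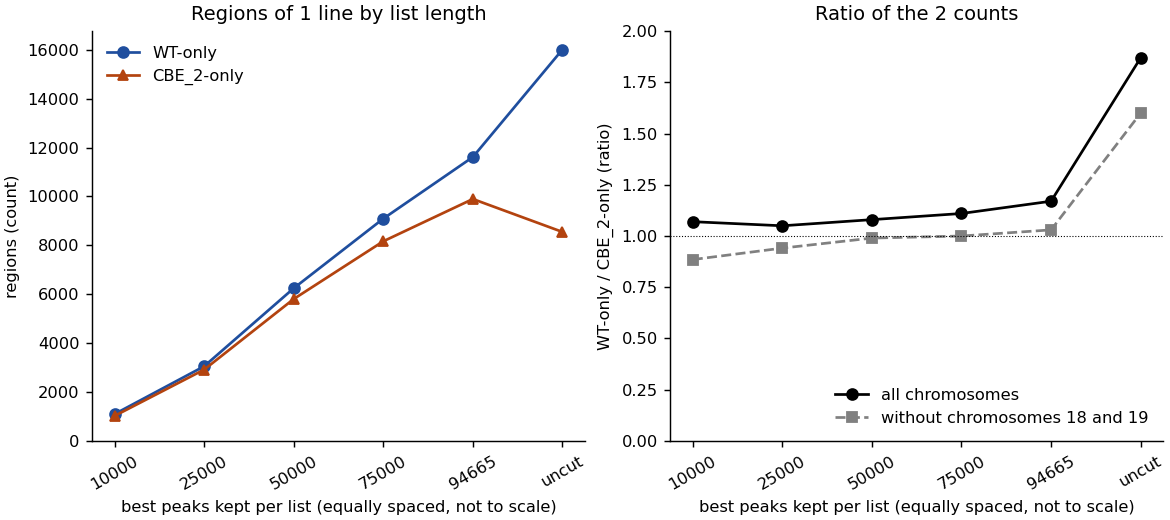
Left, number of WT-only and CBE_2-only regions (vertical axis) by the number of best peaks kept from each list (horizontal axis, evenly spaced and not to scale); right, ratio of the 2 counts with and without chromosomes 18 and 19, the dotted line marking 1. The ratio is 1.87 for uncut lists and between 1.05 and 1.17 for lists of equal length.

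Equal-length lists show that the lines differed beyond their duplicates also among strong peaks. Among the best 25000 peaks, 95.3% to 95.8% were overlapped by a peak of the duplicate and 83.3% to 84.4% by a peak of the other line. At 94665 peaks these shares were 85.4% to 87.1% and 73.6% to 76.9%. In the 62705 shared regions, the median absolute difference in percentile was 3.03 points between the WT libraries and 3.23 between those of CBE_2, against 6.64 to 6.76 between libraries of different lines. Differences over 20 points occurred in 1.05% and 1.86% of regions within a line and in 15.9% to 16.3% between lines. Summit positions were compared only in regions chosen for overlapping peaks, which limits how far apart summits can lie. In the 50931 shared regions with 1 peak per library, the median distance between summits was 28 and 31 bp within a line and 32 to 34 bp between lines.

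**Figure D4:**
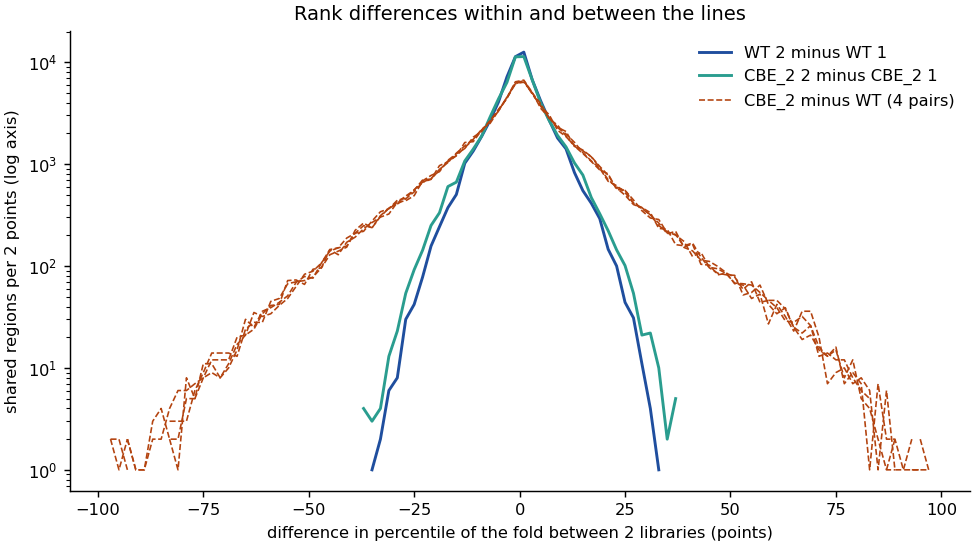
Number of shared regions (vertical axis, log scale) by the difference in percentile of the fold between 2 libraries (horizontal axis, points), for the 2 pairs of duplicates (solid) and the 4 pairs of libraries from different lines (dashed). Differences over 20 points make up 1.05% and 1.86% of regions within a line and 15.9% to 16.3% between lines.

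The largest rank changes took regions from near one end of the ranking of shared regions to near the other. This ranking leaves out peaks outside shared regions, so these percentiles are not positions in the full peak lists. The largest rise was at chr4:95633125-95634636, with folds of 3.14 and 2.86 in WT and 27.1 and 25.1 in CBE_2, from percentiles 6.74 and 3.28 to 99.5 and 99.6 (4.26 ± 0.0944 normal scores, SE; limma adjusted p = 6.23e-13). The next, chr9:101152897-101154660, rose from 8.37 and 0.572 to 96.1 and 95.3 (limma adjusted p = 2.08e-08). The largest fall was at chr10:126077743-126080579, with folds of 25.0 and 25.7 in WT and 2.94 and 2.68 in CBE_2, from percentiles 99.1 and 99.2 to 6.05 and 2.65 (-4.13 ± 0.104 normal scores, SE; limma adjusted p = 7.77e-13). A neighbour at chr10:126099539-126102320 fell from 94.5 and 93.6 to 8.24 and 1.49, and the WT-only region at chr10:126109401-126111588, with folds of 23.3 and 22.3, lay on the same side of both. Among the falls, chrX:120216337-120218785 fell from 97.5 and 97.8 to 4.07 and 2.65 (limma adjusted p = 1.07e-12). Counting only changes of 20 points or more, 4227 shared regions rose (6.74%) and 4767 fell (7.60%). On the log2 scale of the deposited fold, which is not aligned between lists, the split was 7016 higher and 15424 lower, so 31.3% of calls were rises against 48.6% by rank.

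Chromosomes differed in the balance of the lines, and chromosomes 18 and 19 stood apart. WT-only regions made up 23.9% of the 4868 regions of chromosome 19 and 22.5% of the 7338 of chromosome 18, against 10.8% and 10.6% of those elsewhere. CBE_2-only regions made up 2.16% and 2.67%, against 6.12% and 6.16%. At equal list length the WT-only shares were 19% and 18.2%, and without WT replicate 1 or WT replicate 2 the share on chromosome 19 was 44.8% or 48.6%. Ranks of shared regions moved with them. On chromosome 19 the median percentile was 62.6 and 62.3 in WT and 50.7 and 50.0 in CBE_2, and 1007 of 1735 shared regions fell (58.0%, against 15.3% elsewhere). On chromosome 18 the medians were 54.1 and 53.7 against 48.8 and 48.0, and 743 of 2008 fell (37.0%, against 15.8%).

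The shift covered chromosome 19 evenly and other chromosomes in part. In the 7 bins of 10 Mb of chromosome 19 the WT-only share lay between 21.6% and 26.0% and the median rank difference between -12.9 and -6.58 points. Chromosome 18 had 11.7% and 10.3% WT-only regions in its first 20 Mb, with median differences of 0.34 and -0.0913 points, and 16.7% to 31.1% beyond. On chromosome 10 the first 3 bins had 24.1% to 25.5% WT-only regions and differences of -9.94 to -6.33 points, and the other bins 8.81% to 15.4%. On chromosome 13 the share was 16.3% to 27.3% in the first 60 Mb and 7.52% to 13.7% in the rest. Chromosome 11 went the other way along its whole length, with a median difference of 1.51 to 4.10 points in each of its 13 bins. Of its 3956 shared regions 810 were higher (20.5%, against 15.2% elsewhere) and 368 lower (9.30%, against 16.9%). Chromosome X had the highest CBE_2-only share of all chromosomes, 10.1% (against 5.89% elsewhere), reaching 22.5% of 129 regions between 110 and 120 Mb. Between 10 and 20 Mb it had 16.7% WT-only regions and a median difference of -4.6 points. Ranks on chromosome X as a whole were balanced, with a median difference of 0.111 points. Of its 1475 shared regions 212 were higher (14.4%, against 15.6% elsewhere) and 210 lower (14.2%, against 16.5%).

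**Figure D5:**
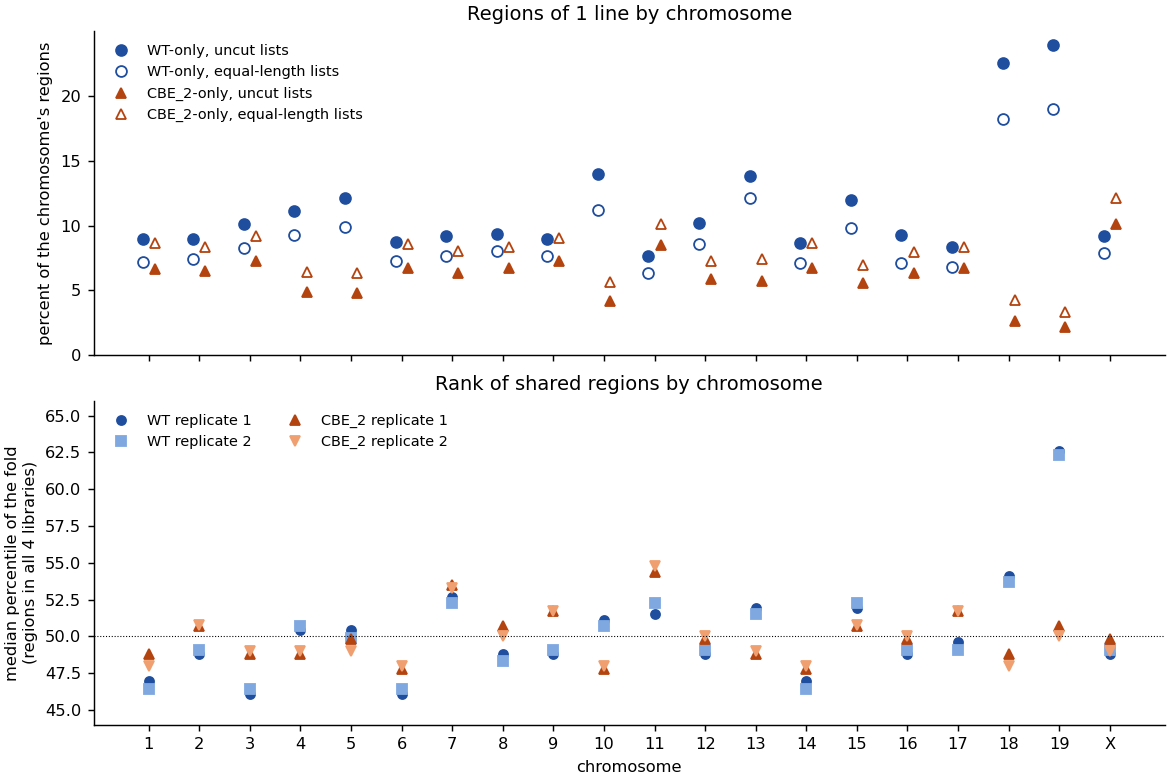
Top, WT-only and CBE_2-only regions as a percentage of the regions of each chromosome (filled, uncut lists; open, lists of 94665 peaks); bottom, median percentile of the fold of shared regions on each chromosome in each library, the dotted line marking 50. Chromosomes 18 and 19 have the highest WT-only shares (22.5% and 23.9%), and on chromosome 19 the WT medians (62.6 and 62.3) lie above those of CBE_2 (50.7 and 50.0).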

How the data were processed

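The 4 deposited peak lists of WT and CBE_2 were used, and the CBE_1 line was not. The submitters' processing notes list build mm9 (mouse) with Trimmomatic, Bowtie2, SAMtools and Picard, and give no version of any tool. The program that called peaks and its settings are not stated in the sources used here, nor is a shift of reads to the transposase's cut. A shift would move peak edges by a few bases. Reads were not analysed, so depth is unknown. The deposited lists hold, for each peak, a score (the whole part of 10 times the −log10 q-value), a fold over background (a ratio), 2 columns of −log10 values (for p-value and q-value) and the summit position. All are the authors' own per-peak values, which served here to rank, shorten or describe a single list. Folds of different lists are printed side by side but are not aligned between lists, so the test used ranks, and log2 folds only as an alternative.

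Peaks were merged with Python 3.11.15 and classed by the libraries present. Equal-length lists kept the peaks with the best −log10 p-value. For shared regions the highest fold was ranked within each library, turned into normal scores and fitted with limma 3.58.1 (R 4.3.3) with a mean-variance trend, with Benjamini-Hochberg adjustment over all 62705 shared regions. Merging and test were tested on simulated data. Regions were put in 29 windows by their midpoint, and a further marker window is not reported here. Coordinates are 1-based positions of mm9, and no sequences are shown, since a genome of that build was not used here. Named regions are the 10 strongest of each line-only class by the library where they rank lowest, the 10 largest called rises and falls, all regions from the IgH J segments to the D-to-VH interval, up to 3 line-only and 3 called regions of each other window, and the 3 densest bins, from which the text gives a selection. Members, windows and lists were chosen with earlier results of these data known.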

Additional observations from a re-analysis of the deposited data

How the results depend on the processing

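Counts depended on list length and on the number of libraries a rule asks for. The better 50% of each list gave 8762 WT-only and 4332 CBE_2-only regions, and lists of equal length without chromosomes 18 and 19, an alternative chosen after seeing the data, gave 9852 WT-only regions. Leaving out 1 library gave 19271 to 32186 WT-only and 10365 to 16853 CBE_2-only regions. The WT-only to CBE_2-only ratio of 1.87 was 1.17 with lists of equal length, 1.37 when absence was judged on the uncut lists, 2.02 with the better 50%, 1.67 with 250 bp around each summit, 1.6 without chromosomes 18 and 19, 1.03 without them at equal length, and 1.14 to 3.11 without 1 library. It stayed above 1 in all of these, but not for shorter lists without chromosomes 18 and 19. Of the 20 chromosomes 18 had a higher WT-only than CBE_2-only share, 8 at equal length, and 8 to 20 without 1 library. CBE_2-only regions outnumbered WT-only regions in 12 of the 29 windows, and in 11 to 15 under the alternatives. At equal length the median widths of shared and WT-only regions were 851 and 431 bp. Without the mean-variance trend 4696 regions rose and 5077 fell. The other alternatives kept both counts within 1.5 times. Over the alternatives, 695 comparisons of named shared regions kept their call, 78 lost it, 32 of them without the trend, 1 gained it, and none changed direction. Named regions that were no longer shared under an alternative are missing from these comparisons. The rise at chr9:101152897-101154660, for example, had no comparison in lists of equal length. No paired analysis was possible because the labels give the duplicates no numbers that pair them across lines.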
